A study of Bos taurus with 90 samples.

Results

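The cluster of miR-424, miR-450 and miR-542 is a group of miRNAs whose hairpins lie side by side on the X chromosome. Its 5 members here are miR-424-5p, miR-424-3p, miR-450a, miR-450b and miR-542-5p, out of 388 miRNAs listed in any tissue. They were taken by name from the count tables, and the set was chosen from the measured levels and co-variation of these same samples. Their tissue levels and their co-variation within a tissue are therefore given as descriptions without a test, while the diet comparisons and the comparison of tissues of the same cow were tested.

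Small RNA was sequenced from mid-lactation Chinese Holstein dairy cows fed a rice straw, corn stover or alfalfa hay based diet. The 90 samples comprised rumen epithelium, duodenum epithelium, jejunum epithelium, liver and mammary gland (rumen, duodenum and jejunum below), with 18 samples per tissue and 6 per tissue and diet. Each cow gave all 5 tissues, and no untreated group is part of the design, so the diets were compared with each other. The rumen, duodenum and jejunum samples are labelled as epithelium, and the others as liver and mammary gland. The frozen tissue was ground and no sorting of cells is described, so fewer cells of a type and less of a miRNA per cell cannot be told apart. Levels are in CPM, the read count of a miRNA scaled to all reads that mapped to annotated miRNAs in that library.

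A miRNA hairpin is cut into a mature 5p and a mature 3p strand, and usually one of them is kept at a much higher level. The strand kept pairs with messenger RNAs through its seed near the 5′ end and lowers their translation or stability. miR-424-5p is the counterpart of the rodent miR-322 and shares its seed with the miR-15/16 family, which is known for restraining cyclins and other cell cycle genes. The miR-424 and miR-503 pair has been studied in mouse mammary involution and in muscle differentiation, and miR-542 and both miR-450 miRNAs are usually transcribed with them. In RefSeq (assembly ARS-UCD2.0) the order on chromosome X is MIR450B, MIR450A-1, MIR450A-2, MIR542, MIR503 and MIR424, with MIR3601 also within the span. MIR450A-1 and MIR450A-2 are separate hairpins, and the tables hold a single row, miR-450a.

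All 5 members were listed in duodenum, jejunum, liver and mammary gland, and 3 were listed in rumen, namely miR-424-5p, miR-450a and miR-450b. The other hairpins of the cluster were represented by 1 further row, miR-503-3p, which averaged 1.02 CPM in duodenum, 1.35 CPM in jejunum and 1.05 CPM in mammary gland. The libraries held between 937556 and 15621501 mapped reads. In the shallowest library 3 reads were worth 3.20 CPM, so the low members rest on few reads there. The reads behind a value ran from 13 to 1732 for miR-424-5p, miR-450a and miR-450b, and from 2 to 122 for miR-424-3p and miR-542-5p. The hepatocyte miRNA miR-122 was listed in liver, at 8671 to 12721 CPM, and in mammary gland, at 0 to 48.5 CPM.

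Of the 18 mammary gland libraries, 4 stood apart in depth, and they are given here before the results because they touch many of them. Alfalfa hay replicate 1 and rice straw replicates 1, 4 and 5 held 937556 to 2624975 mapped reads, and the other 14 held 4421565 to 14328839. The mammary gland spread, overlap with rumen, co-variation, correlation with depth and main diet results are also given without these 4 libraries. That choice was made after seeing the data. The mammary gland means, ratios, same-cow correlations and most alike miRNAs are given with them only.

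Within the cluster miR-450b was the most abundant member in every tissue. Over 18 libraries it averaged 143 ± 67.2 CPM (SD) in liver, 129 ± 32.0 in jejunum, 123 ± 20.4 in duodenum, 97.3 ± 45.4 in mammary gland and 23.9 ± 6.06 in rumen. The lowest, median and highest libraries were 77.0, 122 and 295 CPM in liver, 65.0, 133 and 182 in jejunum, 92.0, 115 and 157 in duodenum, 18.3, 106 and 176 in mammary gland and 15.2, 23.7 and 40.6 in rumen. The rumen stood low, and the other 4 tissues overlapped one another.

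miR-450a averaged 78.1 ± 16.2 CPM (SD, n = 18) in duodenum, 60.4 ± 18.4 in jejunum, 40.9 ± 21.96 in mammary gland, 38.5 ± 18.4 in liver and 9.15 ± 1.99 in rumen. Its lowest, median and highest libraries were 48.4, 73.5 and 105 CPM in duodenum, 25.7, 60.8 and 93.3 in jejunum, 9.14, 44.2 and 86.3 in mammary gland, 21.6, 34.5 and 80.5 in liver and 6.18, 9.38 and 12.9 in rumen. In liver miR-450a was lower on average than in both parts of the small intestine, while miR-450b was not, though the libraries overlapped. Both were lower on average in mammary gland than in the small intestine. Its means in mammary gland and liver differed by less than the spread of either.

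miR-424-5p averaged 75.4 ± 17.6 CPM (SD, n = 18) in duodenum, 68.1 ± 17.4 in jejunum, 57.9 ± 29.1 in mammary gland, 37.5 ± 21.9 in liver and 17.9 ± 5.69 in rumen, and neighbours in that order overlapped. Its lowest, median and highest libraries were 41.7, 76.4 and 116 CPM in duodenum, 39.3, 69.9 and 92.1 in jejunum, 10.5, 56.6 and 113 in mammary gland, 14.7, 30.9 and 103 in liver and 6.08, 17.4 and 28.7 in rumen. By mean level miR-424-5p stood at place 206 of 340 listed miRNAs in rumen and 150 of 338 in duodenum, so it was of middling abundance in both. Among the 7 miRNAs with its seed (with miR-15a, miR-15b, miR-16a, miR-16b, miR-195 and miR-497) miR-424-5p made up 0.911% ± 0.29 (SD, n = 18) of the summed CPM in mammary gland, 0.771% ± 0.21 in duodenum, 0.738% ± 0.41 in liver, 0.671% ± 0.16 in jejunum and 0.226% ± 0.069 in rumen.

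The remaining members were low. miR-424-3p, the other strand of the miR-424 hairpin, averaged 2.97 ± 1.70 CPM in mammary gland, 3.29 ± 3.38 in liver, 4.37 ± 1.91 in jejunum and 4.94 ± 1.76 in duodenum (SD, n = 18). The median ratio of miR-424-5p to miR-424-3p within a library was 18.9 in mammary gland, 15.6 in duodenum, 15.5 in jejunum and 11.7 in liver, and the lowest ratio in any library was 4.06. miR-542-5p averaged 3.94 ± 2.36 CPM in liver, 3.92 ± 3.03 in mammary gland, 3.49 ± 1.03 in jejunum and 3.22 ± 0.99 in duodenum (SD, n = 18). These 4 means of miR-542-5p lay within 1 SD of one another, and the same held for neighbours in the order of the miR-424-3p means.

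**Figure D1:**
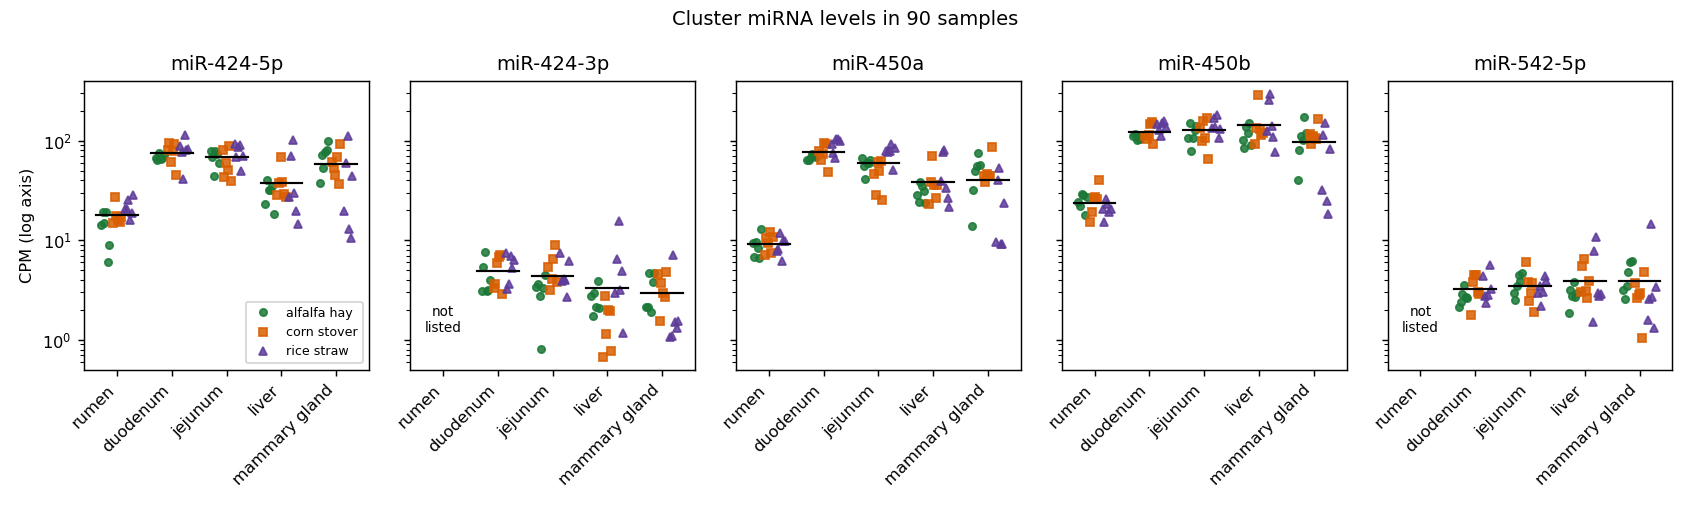
Level of each of the 5 miRNAs in each library, in CPM on a log axis, by tissue. Points are libraries (colour and shape give the diet, 6 per diet) and horizontal lines are means over 18 libraries; miR-450b averaged 23.9 CPM in rumen against 97.3 to 143 CPM in the other tissues.

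The largest contrast between tissues was the low level in rumen. The summed CPM of miR-424-5p, miR-450a and miR-450b averaged 276 ± 49.4 (SD, n = 18) in duodenum, 257 ± 61.1 in jejunum, 219 ± 106 in liver, 196 ± 92.3 in mammary gland and 50.9 ± 8.90 in rumen. For duodenum against rumen the log2 difference was 2.05 (SE 0.14) for miR-424-5p, 2.96 (SE 0.097) for miR-450a and 2.34 (SE 0.097) for miR-450b, on the log2(CPM + 1) scale. All 3 members lay below every duodenum library in rumen, where 8.60% of the 314 miRNAs listed in both tissues did so. They also lay below every jejunum library, against 9.90% of 313 miRNAs.

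Against liver the rumen libraries did not overlap for miR-450a and miR-450b, while miR-424-5p did overlap, and the background was 7.57% of 304 miRNAs. Against mammary gland none of the 3 was free of overlap (background 2.63% of 304). Without the 4 shallow mammary gland libraries all 3 lay below every mammary gland library in rumen (background 8.88%). Over the 289 miRNAs listed in all tissues, the median log2 difference of rumen against the mean of the other 4 tissues was 0.27 as deposited and -0.05 after upper-quartile scaling. For the members the same difference was -1.59 for miR-424-5p, -2.30 for miR-450a and -2.24 for miR-450b as deposited, and over the settings tried it ran from -1.19 (miR-424-5p, rice straw alone) to -2.61 (miR-450a, upper-quartile scaling). The summed CPM of miRNAs marking other cell types differed between tissues as well. The 5 leukocyte miRNAs summed to 2931 to 9560 in rumen, 16019 to 41970 in duodenum and 18567.5 to 31481.4 in jejunum. In liver (3975 to 10633) and mammary gland (573 to 9370) these sums overlapped those of rumen. The 3 members summed to a mean of 219 CPM in liver and 196 in mammary gland, against 50.9 in rumen. In rumen and duodenum the 4 fibroblast miRNAs summed to 3728 to 8946 and 4626 to 9177. The 5 epithelial miRNAs summed to 12824 to 35851 and 7520 to 16058, and the 2 endothelial miRNAs to 16774 to 39440 and 12543 to 28788. The skeletal and cardiac muscle miRNAs (3 of 4 listed) summed to 22.9 to 129 in rumen, 146 to 409 in duodenum and 228 to 469 in jejunum. In liver (92.0 to 279) and mammary gland (22.3 to 600) the muscle sums overlapped those of rumen. The part of these cell types in the rumen level was not tested.

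The spread between libraries of 1 tissue also differed. In liver the coefficient of variation was 58.4% for miR-424-5p, 47.8% for miR-450a and 47.0% for miR-450b, beside a median of 25.1% over the 221 liver miRNAs with a mean of at least 10 CPM. In duodenum it was 16.6% to 23.4% for the same 3 members, beside a median of 20.9%. In mammary gland it was 46.6% to 53.7%, beside 48.2%. Over the 14 deeper mammary gland libraries it was 32.9% for miR-424-5p, 32.7% for miR-450a and 24.5% for miR-450b, beside 32.1%, so the spread was near that of other miRNAs both with and without the shallow libraries.

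The high liver spread came with 3 libraries. miR-450b stood at 295 CPM in rice straw replicate 3, 291 in corn stover replicate 3 and 259 in rice straw replicate 2, and the other 15 libraries ran from 77.0 to 150 CPM. miR-450a stood at 80.5, 70.4 and 77.9 CPM in the same libraries, and from 21.6 to 39.9 in the other 15. miR-424-5p stood at 103, 68.1 and 69.7 CPM in them, and from 14.7 to 40.4 in the rest. miR-542-5p was also highest in these 3 libraries, at 6.50 to 10.9 CPM. miR-424-3p was high in both rice straw libraries (15.5 and 6.53 CPM) but at 1.15 CPM in corn stover replicate 3, where that value rests on 3 reads.

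miR-450b and miR-450a come from neighbouring hairpins, yet their ratio within a library depended on the tissue. The ratio of miR-450b to miR-450a was 1.59 ± 0.15 (SD, n = 18) in duodenum, 2.22 ± 0.52 in jejunum, 2.51 ± 0.45 in mammary gland, 2.67 ± 0.67 in rumen and 3.75 ± 0.43 in liver. The highest duodenum library had a ratio of 1.90 and the lowest liver library 3.11, so these tissues did not overlap. How often ratios of other miRNAs fail to overlap was not counted. Taken singly, 79 of the 306 miRNAs listed in both tissues lay above every liver library in duodenum and 36 below. Jejunum, mammary gland and rumen lay within 1 SD of each other. A ratio within a library does not depend on the scaling of that library. The ratio of miR-450b to miR-424-5p was likewise highest in liver, at 4.07 ± 0.85, and between 1.52 ± 0.71 (rumen) and 1.93 ± 0.39 (jejunum) in the other tissues.

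**Figure D2:**
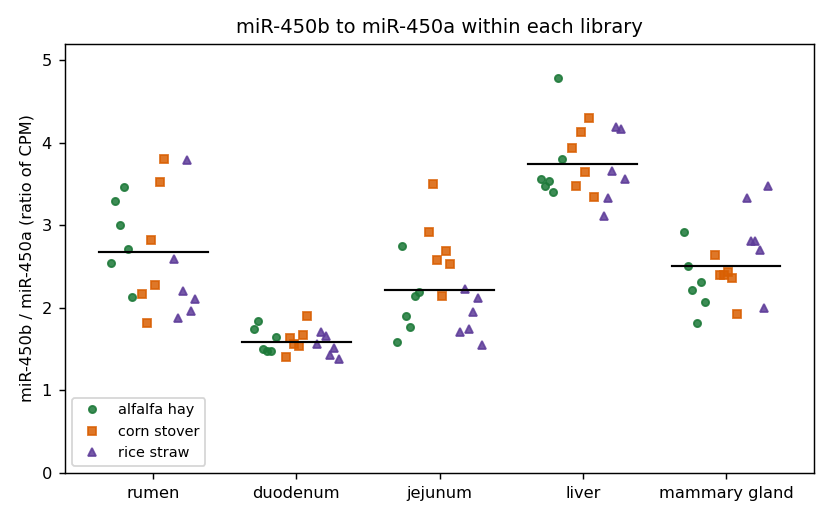
Ratio of miR-450b to miR-450a CPM in each library, by tissue. Points are libraries (colour and shape give the diet) and lines are means over 18 libraries; all duodenum libraries lie at or below 1.90 and all liver libraries at or above 3.11.

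Within a tissue, miR-424-5p, miR-450a and miR-450b varied together from library to library, least so in rumen. Their median correlation lay above the 95th percentile of all pairs of miRNAs in liver, jejunum, duodenum and mammary gland. In mammary gland it did not without the 4 shallow libraries, and in duodenum it fell to 0.32 without 2 libraries. The set was chosen partly from this co-variation, so the percentiles describe it and are no test. After centring each diet on its own mean, the correlation of miR-450a with miR-450b on the log2 scale was r = 0.96 in liver, 0.96 in mammary gland, 0.87 in duodenum, 0.81 in jejunum and 0.46 in rumen (n = 18 libraries each). The points of a tissue share their depth and scaling, so the same measure over all pairs of miRNAs of the tissue is given beside it. The median over the 3 pairs of miR-424-5p, miR-450a and miR-450b was 0.89 in liver, where the median of all pairs was 0.06 and their 95th percentile 0.63. In jejunum the 3 pairs had a median of 0.80 beside 0.18 and 0.65, and in duodenum 0.72 beside 0.20 and 0.66. In rumen they had a median of 0.23 beside 0.04 and 0.57, inside the range of most other pairs. With upper-quartile scaling miR-450a with miR-450b gave r = 0.64 in rumen, where the 95th percentile of all pairs was 0.56. Without the 2 rumen libraries farthest from the median of miR-450a it was 0.58. miR-450a rested on 19 to 75 reads in a rumen library, and the part of counting error there was not tested. Over all pairs of the 5 members the median was lower, at 0.38 in jejunum, 0.54 in duodenum, 0.75 in mammary gland and 0.76 in liver, and it lay above the 95th percentile of all pairs in liver alone.

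In duodenum the median of the 3 pairs fell to 0.32 without the 2 libraries farthest from the median of the first member. The pairs with miR-424-5p fell there, to 0.32 with miR-450a and 0.24 with miR-450b, while miR-450a with miR-450b stayed at 0.77. In duodenum the members also fell with depth, with r = -0.54 for miR-450a and -0.52 for miR-450b against log2 mapped reads, and the part of depth in their co-variation was not tested. In liver, where r with depth lay between -0.22 and 0.24 for the 5 members, the median of the 3 pairs was 0.83 without the 2 farthest libraries. Among the cell type lists, the 3 members together had their highest correlation in liver with the fibroblast list (r = 0.60) and in jejunum with the endothelial miRNAs miR-126-3p and miR-126-5p (r = 0.72). Close behind were the smooth muscle miRNAs miR-143 and miR-145 in liver (r = 0.54) and the leukocyte list in jejunum (r = 0.69). In mammary gland the 3 pairs had a median of 0.92 beside 0.41 and 0.84 for all pairs, and 0.67 beside 0.15 and 0.70 without the 4 shallow libraries. Over the 14 deeper libraries r was 0.95 for miR-450a with miR-450b, 0.84 for miR-424-5p with miR-542-5p and 0.77 for miR-424-3p with miR-542-5p, and the other pairs lay between 0.56 and 0.69.

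The low members followed less closely. miR-424-3p, which is cut from the same hairpin as miR-424-5p, correlated with it at r = 0.36 in jejunum, 0.47 in duodenum, 0.56 in mammary gland and 0.70 in liver. miR-542-5p reached r = 0.81 with miR-424-5p in liver and 0.80 in mammary gland, but 0.17 in duodenum and 0.14 in jejunum. miR-542-5p rested on 14 to 60 reads in a duodenum or jejunum library and on 3 to 59 in a liver library, and the part of counting error in these correlations was not tested.

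**Figure D3:**
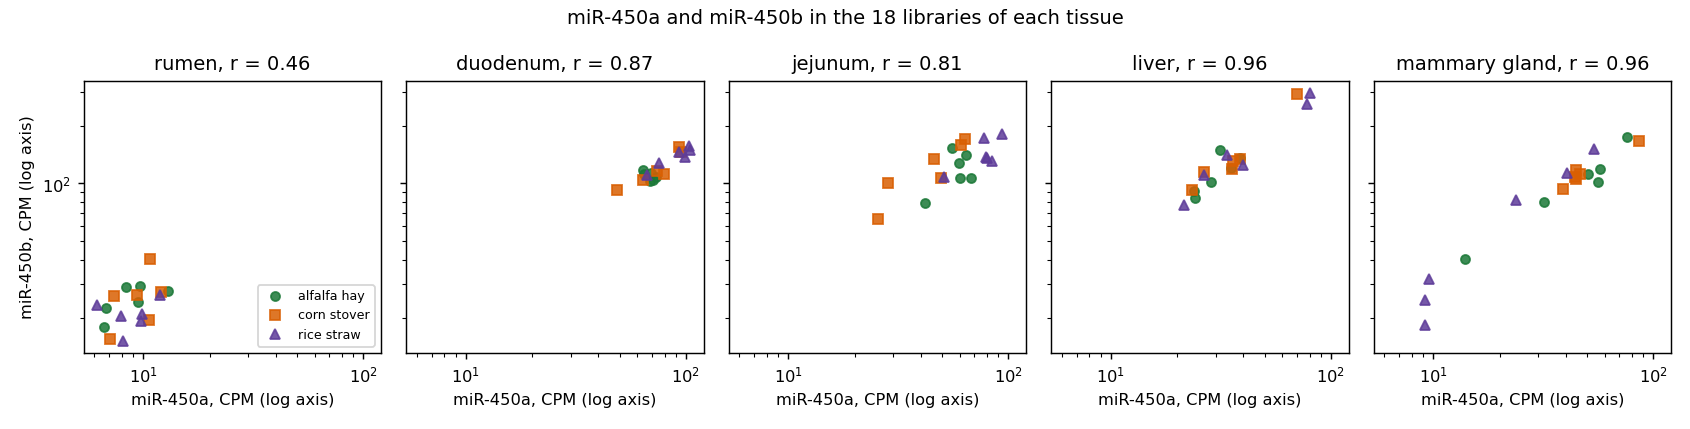
miR-450b against miR-450a in the 18 libraries of each tissue, in CPM on log axes. Points are libraries (colour and shape give the diet) and r is Pearson's correlation on log2(CPM + 1) after centring each diet. The points follow a line in liver and mammary gland (0.96 in both). They scatter more in rumen (0.46), where miR-450a rests on 19 to 75 reads in a library.

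The question for diet was whether a member differed between rice straw, corn stover and alfalfa hay within a tissue. By a limma F test over the 3 diets, with adjustment over all miRNAs of the tissue, 1 of the 23 member and tissue combinations passed. It was miR-450a in jejunum, where 23.8% of all 336 tested miRNAs passed, so 1 of 5 members is near that background. No member passed in rumen (background 1.49% of 335, lowest adjusted p of a member 0.198), in duodenum (0%, lowest 0.481), in liver (0%, lowest 0.551) or in mammary gland (3.72% of 323, lowest 0.0996). At an unadjusted p below 0.05 the limma F test gave 1 member each in rumen (miR-424-5p), liver (miR-424-3p) and mammary gland (miR-450a) and none in duodenum. Over all miRNAs that level was reached by 69 (20.6%) in rumen, 17 (5.21%) in liver, 101 (31.3%) in mammary gland and 36 (10.7%) in duodenum. For duodenum and liver edgeR on the recovered reads gave no adjusted call, with 52 and 25 unadjusted.

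In jejunum miR-450a was 67.3, 55.5, 41.6, 60.5, 59.9 and 64.4 CPM in alfalfa hay replicates 1 to 6. It was 45.9, 28.5, 61.1, 49.5, 63.4 and 25.7 CPM on corn stover, and 79.5, 77.1, 78.9, 93.3, 50.9 and 84.4 CPM on rice straw. On rice straw 5 of the 6 libraries lay above every library of the other diets, and replicate 5 lay among the latter. Rice straw was above corn stover by 0.80 on the log2 scale (SE 0.21, limma adjusted p = 0.00856), and in this contrast 19.3% of the 336 miRNAs were higher on rice straw. The median of that contrast was 0.18 over all miRNAs tested and 0.28 over the 5 members.

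Corn stover against alfalfa hay gave -0.41 (SE 0.21, limma adjusted p = 0.154) and rice straw against alfalfa hay 0.40 (SE 0.21, adjusted p = 0.726) for miR-450a. The F test gave an adjusted p of 0.0234, and between 0.0132 and 0.0473 under the 10 other settings. The call was lost when rice straw replicate 4 (adjusted p = 0.0507), corn stover replicate 2 (0.0565) or corn stover replicate 6 (0.0546) was left out, and it held without each of the other 15 libraries. The endothelial miRNAs moved with the same contrast in jejunum, with a summed CPM of 8000 to 17708 on corn stover, 19516 to 29441 on rice straw and 18498 to 28030 on alfalfa hay. The part of these cells in the miR-450a difference was not tested.

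miR-450b did not pass in jejunum (limma F test, adjusted p = 0.433), with means of 119 ± 26.8 CPM on alfalfa hay, 122 ± 39.6 on corn stover and 144 ± 27.4 on rice straw (SD, n = 6). Its rice straw libraries, at 108 to 182 CPM, overlapped the corn stover libraries, at 65.0 to 171. The ratio of miR-450b to miR-450a was 1.87 on rice straw, 2.70 on corn stover and 2.02 on alfalfa hay (geometric means, n = 6). This ratio was tested in all 5 tissues and 3 diet pairs after the data had been seen, by 15 two-sided exact permutation tests. Rice straw against corn stover in jejunum gave a log2 difference of -0.53 (SE 0.13, exact permutation p = 0.00433, adjusted over the 15 tests p = 0.0649). It did not pass after adjustment, and neither did the others.

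**Figure D4:**
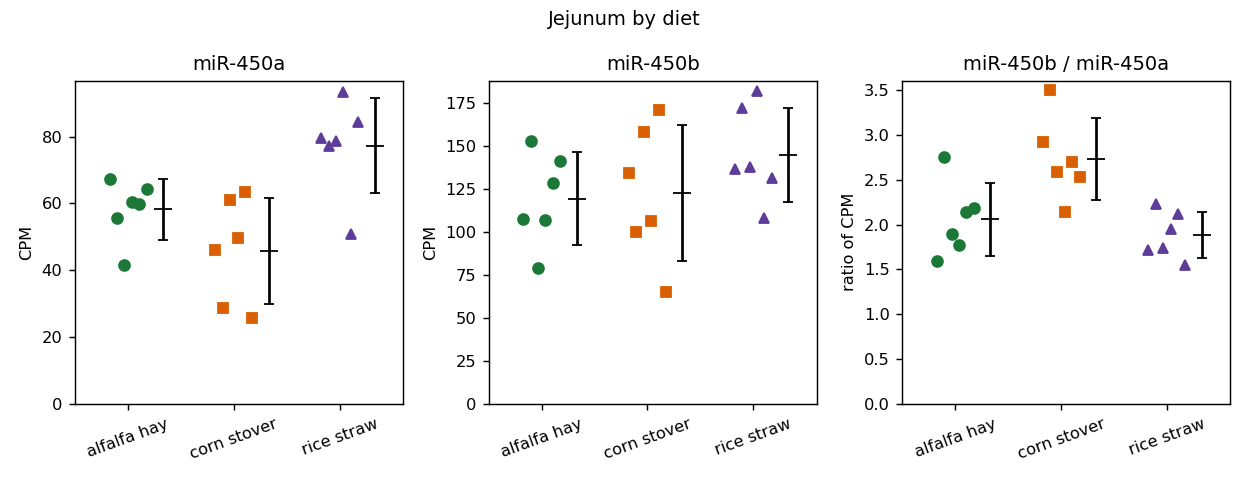
miR-450a and miR-450b in CPM, and their ratio, in the jejunum libraries by diet. Points are libraries, bars are the mean ± SD of 6; miR-450a averaged 77.4 CPM on rice straw and 45.7 CPM on corn stover, while miR-450b averaged 144 and 122 CPM.

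Of the miRNAs that share the miR-424-5p seed, miR-16a, miR-16b and miR-195 passed the jejunum F test, 3 of 6 tested, and all 3 were higher on rice straw than on corn stover. Their log2 differences were 0.61 (SE 0.12) for miR-16a, 0.38 (SE 0.11) for miR-16b and 0.50 (SE 0.16) for miR-195. Over all 336 jejunum miRNAs 23.8% passed the F test. In the same contrast 65 of them passed as higher on rice straw and 31 as lower, and the median over all was 0.18. The miR-16a call held under 10 of 10 other settings, with limma or edgeR adjusted p up to 0.00606, that of miR-16b under 6 of 10 (up to 0.0694) and that of miR-195 under 8 of 10 (up to 0.114). Leaving out 1 library kept miR-16a in 18 of 18 fits, miR-16b in 12 (lost without rice straw replicate 3, 4 or 6 or corn stover replicate 1, 3 or 6) and miR-195 in 17 (lost without corn stover replicate 2). miR-424-5p itself gave 0.37 (SE 0.21, limma adjusted p = 0.186) in that contrast. In the other tissues miR-15a in mammary gland was the one seed-sharing miRNA to pass (limma F test, adjusted p = 0.0434), and it was lower on rice straw than on corn stover, with a log2 difference of -1.93 (SE 0.45). Without the 4 shallow libraries its difference was -1.16 (SE 0.22, F test adjusted p = 0.0114), but the call held in 4 of 18 fits that left out 1 library. In this mammary gland contrast miR-15b, miR-16b, miR-195 and miR-497 were also lower on rice straw (pairwise limma adjusted p = 0.0271, 0.0250, 0.0394 and 0.0208). miR-16a did not pass there (pairwise limma adjusted p = 0.0812). Of all 323 miRNAs 25.1% were lower on rice straw in that contrast, the median was -0.63, and 3.72% passed the F test. From the cluster itself miR-503-3p, tested in jejunum alone, did not pass (limma F test, adjusted p = 0.217).

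In mammary gland miR-424-5p, miR-450a and miR-450b were low in the shallow libraries. miR-450a was 13.9, 31.9, 50.2, 56.1, 75.8 and 57.4 CPM in alfalfa hay replicates 1 to 6, 44.4, 38.9, 46.6, 44.1, 44.6 and 86.3 CPM on corn stover, and 9.60, 40.3, 53.6, 9.14, 9.17 and 23.7 CPM on rice straw. The 4 lowest values are the 4 shallow libraries. Across them miR-450a was 9.14 to 13.9 CPM, against 23.7 to 86.3 CPM in the 14 deeper libraries. miR-450b was 18.3 to 40.5 CPM against 80.0 to 176, and neither member overlapped between the 2 sets of libraries. The share of all mammary gland miRNAs without overlap was not counted. Summed CPM of the fibroblast, leukocyte, epithelial, red blood cell and seed-sharing miRNAs did not overlap either. The endothelial and smooth muscle sums did overlap. The lack of overlap is thus not particular to the members. miR-424-5p overlapped slightly, at 10.5 to 37.3 CPM against 36.6 to 113.

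With each diet centred, r with log2 mapped reads was 0.84 for miR-450a, 0.82 for miR-450b and 0.71 for miR-424-5p over 18 libraries, and 0.16, 0.00 and 0.07 over the 14 deeper ones. For miR-542-5p it was 0.47 and for miR-424-3p 0.32 over 18 libraries, and both overlapped between the shallow and the deeper libraries. Other lists moved with the same libraries. The summed CPM of the 4 fibroblast miRNAs (miR-199a-3p, miR-199a-5p, miR-199b and miR-214, 4 of 4 listed) was 730 to 1648 in the shallow libraries and 2845 to 5608 in the others. The 5 leukocyte miRNAs (5 of 5 listed) summed to 573 to 2018 against 3106 to 9370, and the 5 epithelial miRNAs of the miR-200 family (5 of 5 listed) to 10598 to 31854 against 32549 to 67448. The 3 red blood cell miRNAs (3 of 3 listed) were higher in the shallow libraries, at 3251 to 4241 against 1070 to 2938. The other 6 miRNAs with the miR-424-5p seed summed to 881 to 2735 against 5509 to 9820, so they too were low in the shallow libraries. The part of depth and of these cell types in the members' levels was not tested.

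**Figure D5:**
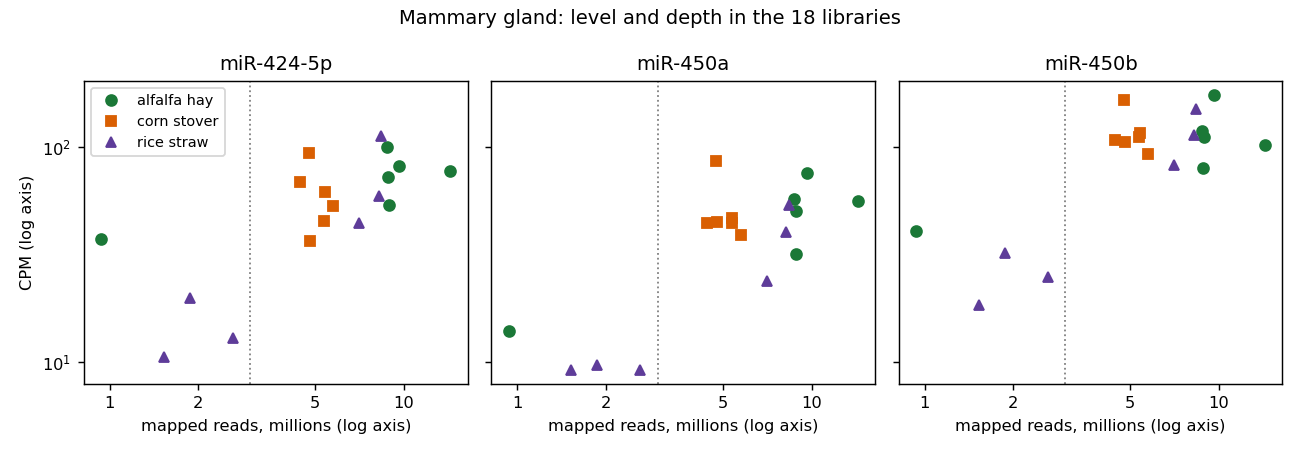
CPM of miR-424-5p, miR-450a and miR-450b against mapped reads in the 18 mammary gland libraries, both on log axes. Colour and shape give the diet and the dotted line separates the 4 shallow libraries, which hold miR-450a at 9.14 to 13.9 CPM.

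Among the 4 shallow libraries 3 were rice straw samples, so depth and diet were partly confounded in mammary gland. miR-450a was lower on rice straw than on corn stover by a log2 difference of -1.33 (SE 0.47, pairwise limma adjusted p = 0.0422), although its F test did not pass. In that contrast 25.1% of the 323 miRNAs were lower on rice straw and the median over all was -0.63. Without the 4 shallow libraries the difference was -0.39 (SE 0.32, limma adjusted p = 0.373), and with upper-quartile scaling it was -0.45 (adjusted p = 0.352). With depth as a term in the fit it was -1.09 (SE 0.29, limma adjusted p = 0.00708), and without the shallowest library, an alfalfa hay sample, it was -1.33 (SE 0.41, limma adjusted p = 0.0159). The F test passed in both of the latter fits, with adjusted p of 0.0186 and 0.0263.

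In rumen miR-424-5p averaged 13.7 ± 5.35 CPM on alfalfa hay, 18.1 ± 4.59 on corn stover and 21.8 ± 4.64 on rice straw (SD, n = 6), with ranges of 6.08 to 19.4, 15.1 to 27.2 and 15.9 to 28.7 that overlapped (limma F test, adjusted p = 0.198). In liver miR-424-3p averaged 2.60 ± 0.79, 1.56 ± 0.83 and 5.71 ± 5.13 CPM on the same diets (SD, n = 6, limma F test, adjusted p = 0.551), and the rice straw mean includes the 15.5 CPM of replicate 3. In duodenum miR-450a averaged 68.3 ± 3.70, 75.6 ± 17.7 and 90.4 ± 15.9 CPM and miR-450b 110 ± 5.42, 121 ± 24.7 and 138 ± 16.8 CPM (SD, n = 6), with adjusted p of 0.482 and 0.481 by the limma F test.

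Whether the diet differences themselves differed between tissues was tested by the tissue by diet interaction in a limma fit of all 90 samples. It passed for miR-450a (adjusted p = 0.00136) and miR-450b (adjusted p = 0.0448), not for miR-424-5p (adjusted p = 0.0505), against a background of 45.7% of 289 miRNAs. That fit did not use the shared cows. With the cow, assumed from diet and replicate number, as a block in the limma fit, miR-424-5p passed too (adjusted p = 0.0477). Rice straw against corn stover was 0.80 for miR-450a in jejunum and -1.33 in mammary gland. Without the 4 shallow mammary gland libraries none of the 3 passed, with adjusted p of 0.0979 for miR-450a, 0.628 for miR-450b and 0.564 for miR-424-5p.

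Since each cow gave 5 tissues, the level of a member in one tissue could be set against its level in another. The labels do not state that samples with the same diet and number come from the same cow, and this was assumed. Across the 289 miRNAs listed in all tissues, such samples of different tissues correlated at a median of 0.07 after diet centring (180 pairs). Samples of the same diet with different numbers correlated at a median of -0.02. By tissue pair the median for the same number ran from -0.0008 (rumen and liver) to 0.18 (duodenum and jejunum). The data thus bear out the assumed pairing only weakly. Over the 42 combinations of member and tissue pair, r ran from -0.66 to 0.62 with a median of -0.02, and 20 were above 0. Permutations of cows within a diet gave 4 with p below 0.05 and none after adjustment. The lowest adjusted p was 0.0517, for miR-450b in duodenum and mammary gland (r = -0.55, permutation p = 0.00123; Spearman's rho = -0.62, permutation p = 0.00557, adjusted p = 0.234). Without the 2 cows farthest from the median in duodenum r was -0.63. The mammary gland values in all these correlations include the 4 shallow libraries.

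The miRNAs most like the members were sought by a rule. Over the 15 means of tissue and diet, miR-375 was most like miR-424-5p (Spearman's rho = 0.88) and miR-450a (0.91), and miR-28 was most like miR-450b (0.81). Within a tissue, the miRNA with the highest mean r with the listed members was miR-2443 in rumen (0.44), miR-362-3p in duodenum (0.64), miR-660 in jejunum (0.55), miR-335 in liver (0.65) and miR-24-3p in mammary gland (0.81, n = 18 libraries each). miR-503-3p, from the same cluster, came next in mammary gland at 0.79.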

How the data were processed

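The authors removed low quality reads with CASAVA 1.8, trimmed and aligned them to bovine miRBase precursors with sRNAbench, and deposited CPM per miRNA and library, scaled to all miRNA-mapped reads. The study's text calls the processed files raw counts, but their values are CPM. The alignment allowed mismatches and multiple mappings, so reads of near-identical hairpins may be shared. Rows not listed in a tissue were not analysed there. Low CPM values were whole multiples of 1 read (100% of values up to 1000 reads within 0.02), which gave the mapped read totals; 3 reads were worth 0.192 to 3.20 CPM.

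Diets were compared within a tissue by limma 3.58.1 in R 4.3.3 (F test and pairwise contrasts, intensity trend) on log2(CPM + 1), for miRNAs above 1 CPM in more than 50% of samples, with Benjamini-Hochberg adjustment at 0.05. Every listed member passed that filter. edgeR 4.0.16 on recovered reads, other pseudocounts, filters and scalings, a depth term and a replicate block were alternatives. Same-cow correlations used 100000 permutations within diets, a restriction added to the planned test. Fits were tested on simulated data. The members and lists were chosen with earlier results of these data known. The members, miRNAs of the same cluster or seed, and the 3 most alike by correlation were named. Separate animals were sampled, but no batch is given.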

Additional observations from a re-analysis of the deposited data

Results flagged for a closer look

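Of 69 groups of 6 libraries (member, tissue and diet), 8 held a library far from the other 5 by Dixon's test on log2(CPM + 1), and chance alone flags about 5% of groups. Of these, 2 came from liver corn stover replicate 3, where miR-424-5p was 68.1 CPM (others 27.1 to 38.2) and miR-450b 291 CPM (others 92.4 to 135). Another 2 came from mammary gland rice straw replicate 3, where miR-424-3p was 7.05 CPM (others 1.07 to 1.56) and miR-542-5p 14.6 CPM (others 1.31 to 3.41). In jejunum miR-450a stood at 50.9 CPM in rice straw replicate 5 (others 77.1 to 93.3), and miR-424-3p at 0.809 CPM in alfalfa hay replicate 4 (others 2.76 to 4.50). In mammary gland miR-450a stood at 86.3 CPM in corn stover replicate 6 (others 38.9 to 46.6), and in rumen miR-424-5p at 27.2 CPM in corn stover replicate 2 (others 15.1 to 17.7).

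The diet differences of miR-450a (limma interaction, adjusted p = 0.00136) and miR-450b (adjusted p = 0.0448) differed between tissues, and neither did without the 4 shallow mammary gland libraries (adjusted p = 0.0979 and 0.628). The interaction passed for 45.7% of the 289 miRNAs tested. With upper-quartile scaling miR-450b did not pass (limma interaction, adjusted p = 0.213).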

How the results depend on the processing

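The low rumen level of miR-424-5p, miR-450a and miR-450b kept its direction in every setting, with log2 differences from -1.19 to -2.61. The number of miRNAs called by diet in mammary gland was 12, and it was 0 with a pseudocount of 0.1 CPM, 19 with 5 CPM, 26 with edgeR, 84 without the shallowest library, 113 with a depth term and 61 without the 4 shallow libraries. In rumen it was 5, and 8 with a mean of at least 10 CPM, 3 without the shallowest library and 0 with a depth term, which in duodenum gave 9. Leaving out 1 library in turn, which like the omission of the 4 shallow ones was chosen after seeing the data, gave 0 to 27 calls in rumen, 0 to 1 in duodenum, 67 to 109 in jejunum, 0 to 3 in liver and 0 to 84 in mammary gland. Members called then numbered 0 to 1 in jejunum and 0 to 2 in mammary gland. There miR-450a passed without rice straw replicate 3 (adjusted p = 0.0352) or alfalfa hay replicate 1 (0.0263), miR-424-5p without rice straw replicate 3 (0.0373), and 1 member passed without the shallowest library and with a depth term (adjusted p = 0.0186).

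The replicate block gave 55 calls in mammary gland, 3 in rumen and 74 in jejunum, and changed no member's diet call; with the cow as the block, the interaction of miR-424-5p passed (adjusted p = 0.0477), as it did with a pseudocount of 0.1 CPM (0.0481). Same-numbered libraries of different diets correlated at a median of -0.03 (jejunum) to 0.20 (rumen) and not in every pair above 0.1. Replicate numbers were therefore not taken as pairs across diets in the main fits. In rumen libraries with different numbers had a median of -0.02, and a link behind the numbers there was not tested. The assumed same-cow pairs did not all lie above 0.1 either, with a lowest of -0.44. Of 3 members, 2 had an interaction, 1 with upper-quartile scaling and 0 without the 4 shallow libraries. One same-cow correlation passed on values not centred (miR-450b, duodenum and mammary gland, adjusted p = 0.0260).

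Differences that did not pass changed sign for miR-450a in rumen (-0.042 with upper-quartile and -0.041 with TMM scaling, -0.077 with edgeR), miR-424-5p in duodenum (-0.012) and miR-424-3p in mammary gland (0.029), the last 2 with upper-quartile scaling. The median correlation of miR-424-5p, miR-450a and miR-450b moved to 0.32 in duodenum and 0.86 in mammary gland without the 2 farthest libraries, to 0.67 in mammary gland without the 4 shallow ones, and with Spearman's rho to 0.60 in jejunum and 0.82 in liver; over all members in liver it moved to 0.61 without the 2 farthest. The cause of these shifts was not tested. miR-424-3p and miR-542-5p rest on as few as 2 reads in a mammary gland library, and the size of difference detectable at that depth was not tested.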
